A study of Drosophila melanogaster with 12 samples.

Results

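The transcripts described here come from heads of male flies examined 7 days after a 7-day exposure to the convulsant pentylenetetrazole (PTZ) had ended. They were measured on the 4 arrays whose titles name PTZ followed by a pair of periods on normal food, out of 12 arrays in the series. Unmated males of the wild-type strain Oregon-R, 3 to 4 days old at the start and 30 to a vial, were fed 8 mg/ml PTZ for 7 days, moved to normal food for 3 days, moved again to fresh normal food for 4 days, and frozen on day 14. Each treated sample was hybridised together with head RNA of males of the same strain and age that stayed on normal food throughout and were transferred to fresh vials on the same days, called untreated here. No allele or transgene was involved, and no group received any agent other than those named. RNA was made from pools of heads, each pool combining several vials, and the series' design text calls the 4 arrays biological replicates. The dye Cy5 marked the treated RNA on replicates 1 and 2, and the dye Cy3 marked it on replicates 3 and 4, the dye swaps. The only other group used for a comparison was the second day-14 arm, also 4 arrays, in which the same PTZ exposure was followed by 3 days on 3.48 mg/ml ethosuximide and then 4 days on normal food. The labels do not say whether the arms shared untreated pools.

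PTZ blocks chloride channels that open on binding GABA, the main inhibitory transmitter of the insect and mammalian brain, so that neurons lose inhibition and seizures follow. Repeated dosing with PTZ is a long-used way to study how seizure liability builds up and what remains after the drug is gone. A fly head holds the brain and eyes, and also fat body, muscle, glia and cuticle-forming epidermis. The fat body is the insect organ that combines the storage and detoxification work of liver and adipose tissue with the making of immune peptides. In RNA from whole heads, fewer cells of a type and less RNA per cell cannot be told apart.

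Each value is a log2 ratio of treated over untreated RNA hybridised to 1 spotted cDNA probe, so no level per gene is available and no gene's abundance can be set against another's. The array holds 13824 probes, each printed as 2 adjacent spots, in 48 print blocks. Between 6869 and 7433 probes had a value on a withdrawal array, and the spread of the centred ratios was 0.271 to 0.29 (SD over probes), against 0.463 to 0.582 on the 4 arrays harvested on day 10. The 2 spots of a probe correlated at r = 0.519 to 0.579 across probes. Ratios were averaged over the spots of a probe, centred on each array's median and corrected for the print block. They were then turned so that positive means higher in treated heads, and fitted on these 4 arrays alone with a term for the dye.

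The replicates did not agree evenly, and this bears on every result below. Across probes, the turned ratios of replicates 3 and 4 correlated at r = 0.60 and those of replicates 1 and 2 at 0.31. Replicate 1 correlated with replicates 3 and 4 at 0.24 and 0.20, whereas replicate 2 correlated with them at -0.24 and -0.23. Replicate 2 thus ran against both dye swaps, although it was the array closest to replicate 1. Probes on 1 array share its scan, its dyes and its print positions. Medians over the rows of the print blocks, in the deposited direction, correlated at r = 0.92 between replicates 3 and 4. Between replicate 1 and replicates 3 and 4 they correlated at -0.63 and -0.76. With print row and column also corrected, the turned ratios of replicate 1 correlated with replicates 3 and 4 at only 0.12 and 0.06. Replicates 3 and 4 then correlated at 0.56, and replicate 2 with them at -0.27 and -0.25. The deposited ratios were read as Cy5 over Cy3. This reading is likely, because Cy5 is the first channel on every array and the design text names its spot measure red over green, but the text does not say whether the swapped arrays had already been turned. Calls under the other reading, with the swaps left as deposited, are therefore given with the gene lists that had any. For named genes past the threshold in either reading, other than those under Other observations, estimates that change sign are given in the closing section. Under that reading the signs of the cross-orientation correlations change, and replicate 1, not replicate 2, runs against replicates 3 and 4.

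Fewer transcripts were higher than lower in heads after PTZ withdrawal. Of 6386 probes with values on at least 3 of the 4 arrays, 83 were higher in treated heads (1.3%) and 245 were lower (3.84%), at an adjusted p under 0.05 in limma. With no centring of the arrays the counts were 13 and 227, so the share of calls that were higher moved from 25.3% to 5.4%. The median size of the 328 called differences was 0.36 on the log2 scale, a ratio of 1.29, and their sizes ran from 0.27 to 1.43. Of these probes, 227 had the same sign on every array that measured them, 73 of them higher and 154 lower. Counted as genes with 1 probe each, 50 of 3649 annotated genes were higher (1.37%) and 137 were lower (3.75%), and the median over all 3649 was 0.00. With the swaps left unturned, 126 genes were higher (3.45%) and 55 lower (1.51%), and only 81 probes passed in both readings. With a correction for print row and column added to that for print block, 9 genes were higher (0.247%) and 30 lower (0.822%). Of the 225 called probes with a tested neighbour in print, 22.2% had one that was also called, against 5.96% of all probes tested. With the row and column correction these shares were 0% and 1.4%. The part of print position in the calls was not tested. Without replicate 1 the fit called 25 probes higher and 28 lower, and without replicate 2 it called 397 higher and 678 lower. Without replicate 3 the counts were 25 and 94, and without replicate 4 they were 28 and 124. Without the dye term no probe passed in limma, with 865 probes at an unadjusted p under 0.05. A fit that shared 1 spread and 1 dye term over all 12 arrays called 0 higher and 1 lower.

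**Figure D1:**
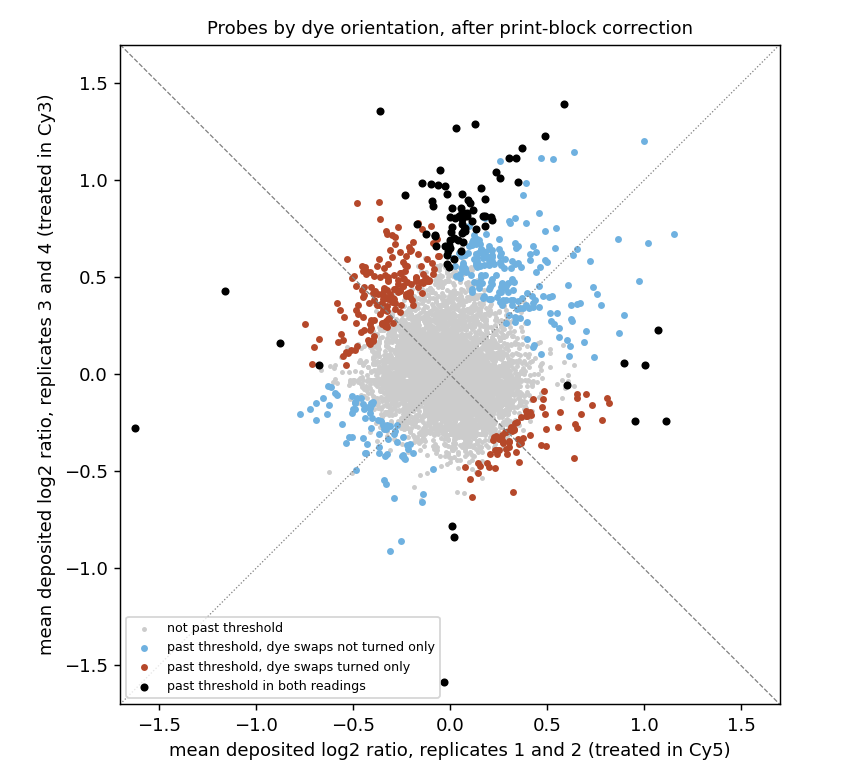
Each point is 1 of the 6386 probes tested: the horizontal axis is its mean deposited log2 ratio on replicates 1 and 2, and the vertical axis its mean on replicates 3 and 4, both after the print-block correction. Probes past the threshold with swaps turned lie towards the dashed diagonal, those past it with swaps not turned towards the dotted one, and the 81 probes past it in both readings lie mostly near an axis, with a large ratio in 1 dye orientation and a small one in the other; 1 probe lies outside the plotted range.

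The leading lower genes, those with the smallest p and the same sign on every array, had varied functions. Values are given for replicates 1 to 4 in that order, and estimates are followed by their standard error. Fas1, which encodes fasciclin 1, an adhesion protein on axons, read -0.32, -0.25, -0.76 and -0.66, for an estimate of -0.50 ± 0.08 (adjusted p = 0.0024 in limma). BomT3, a Bomanin peptide gene induced through the Toll immune pathway, read -0.84, -0.66, -0.10 and -0.42, and its estimate was -0.50 ± 0.08 (adjusted p = 0.0030). Miox, encoding myo-inositol oxygenase, the first enzyme of inositol breakdown, read -0.49, -0.11, -0.58 and -0.86 and was estimated at -0.51 ± 0.09. All 4 arrays lay below 0 for each of these genes, and BomT3 and Miox each had 1 array close to 0.

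There were 3 cytochrome P450 genes among the 15 leading lower genes. Cyp313a1 read -0.60, -0.14, -1.28 and -0.50 (estimate -0.63 ± 0.11), Cyp28d1 read -0.59, -0.03, -0.63 and -0.65 (estimate -0.48 ± 0.09), and Cyp9b2 read -0.65, -0.10, -0.60 and -0.52 (estimate -0.47 ± 0.09). In each of them replicate 2 was the array closest to 0. A second probe of Cyp28d1, measured on 3 arrays, gave -0.06 ± 0.10 and did not pass, so the probes of that gene disagree. The remaining leading lower genes were the initiation factor gene eIF5B (-0.88, -0.47, -0.24 and -0.12), the tRNA methyltransferase gene CG7009 (-0.74, -0.35, -0.39 and -0.20), the cuticle protein gene Cpr67B (-0.66, -0.16, -0.41 and -0.64), and CG10560, CG4757, CG8301, CG11843, CG7065 and CG14641, whose estimates lay between -0.54 and -0.40. CG10560 was even over the arrays, at -0.61, -0.28, -0.51 and -0.56, as was CG11843, at -0.37, -0.30, -0.43 and -0.59. All 15 leading lower genes also passed with the row and column correction. Of the 30 leading genes in both directions, 27 were measured without replicate 1 and 10 of them passed. Their direction could not change there, since they were picked for the same sign on every array. With the swaps left unturned, none of the 15 lower genes passed, and 12 of the 15 had an estimate above 0.

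The leading higher genes were spread over unrelated functions and had smaller or less even ratios. Son, which encodes an RNA-binding protein of splicing, read 0.31, 0.30, 0.47 and 0.28, for an estimate of 0.34 ± 0.08 (adjusted p = 0.020 in limma). CG3065 read 0.22, 0.49, 0.34 and 0.33, and Mvd, encoding mevalonate diphosphate decarboxylase of the isoprenoid pathway, read 0.34, 0.15, 0.49 and 0.33. Tdg, the thymine DNA glycosylase of base excision repair, read 0.51, 0.08, 0.42 and 0.40. These genes lay above 0 on every array and showed no single dominating array. In the sorting nexin gene Snx1, whose product works in endosomal sorting, 3 arrays gave 0.73, 0.09 and 0.23, with no value on replicate 1. PTP-ER, a tyrosine phosphatase acting on the ERK kinase, read 0.65, 0.27 and 0.24 on the 3 arrays other than replicate 2. The other leading higher genes were PIG-O, of GPI-anchor synthesis, and CG11912, CG6790, CG10300, CG10710, CG10628, CG6638 and the cuticle-associated Osi6, with estimates between 0.33 and 0.60. CG6790 had a second probe at 0.12 ± 0.11, which did not pass. The leading probes of Snx1, PIG-O and CG6790 were consecutive in print, so they are not separate in position.

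The largest estimate of all, 1.43 ± 0.10 for a probe of the odorant-binding protein gene Obp19c, rested on 1 array. Its ratios were 0.20 on replicate 1, 0.27 on replicate 2 and 2.62 on replicate 4, with none on replicate 3. The dye term fits replicate 4 exactly when it is the only array of its orientation, so the error reflects the likeness of replicates 1 and 2 and the spread borrowed from other probes. A second probe of Obp19c, measured on 4 arrays, gave -0.10 ± 0.08 and did not pass. The first probe passed as lower, at -1.19, with the swaps unturned. Under that reading CG11912 and PIG-O passed as higher, at 0.36 and 0.27, and Son, Tdg and Mvd lay at -0.03, -0.06 and -0.08. Of the 15 leading higher genes, 4 passed with the row and column correction, namely Obp19c, CG11912, Osi6 and Snx1. The last 3 had no value on replicate 1, so replicate 2 alone stood for its dye orientation. It read 0.96 for CG11912, 0.82 for Osi6 and 0.73 for Snx1. Replicates 3 and 4 read 0.29 and 0.18 for CG11912, 0.23 and 0.07 for Osi6, and 0.09 and 0.23 for Snx1. For the other 11 leading higher genes, adjusted p lay between 0.052 and 0.11 under that correction.

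**Figure D2:**
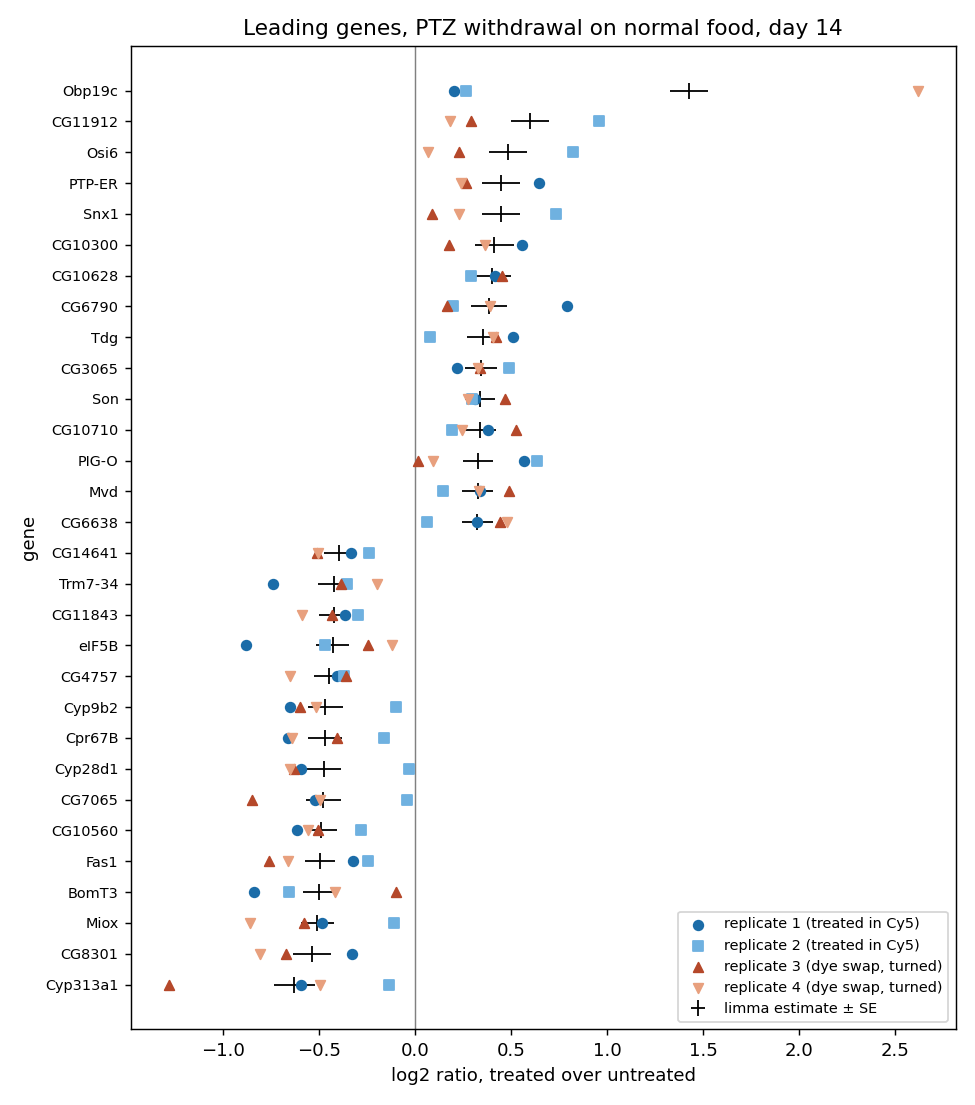
Rows are the 15 leading genes in each direction and the horizontal axis is the log2 ratio of treated over untreated heads; symbols are single arrays and the black bars the limma estimate ± SE. All values of a gene lie on 1 side of 0, CG7009 is shown under its symbol, replicate 2 is the value nearest 0 for several lower genes such as Cyp28d1 at -0.03, and Obp19c is carried by replicate 4 at 2.62.

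Detoxification genes were represented by 43 tested cytochrome P450 genes, enzymes that oxidise foreign compounds, hormones and fatty acids. Of them 5 were lower and 0 higher, their median was -0.10, and 13 lay above 0, against a background of 3.75% of genes lower and 1.37% higher. The 5 were Cyp313a1, Cyp28d1 and Cyp9b2, described above, Cyp9f2 (-0.39, -0.17, -0.33 and -0.55, estimate -0.36 ± 0.08), and Cyp4d21 (-0.30, -0.22, -0.81 and -0.06, estimate -0.35 ± 0.10), the last named here after its value was seen. All values of these 5 genes were below 0. The other members ran from -0.27 to 0.25 and included Cyp6a23, at -0.08 ± 0.08. With the row and column correction 3 of the 43 were lower and the median was 0.00, and with the swaps unturned 1 was higher and 2 lower.

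The glutathione S-transferases, which attach glutathione to reactive compounds, gave no call among 13 genes, with a median of -0.10. GstD1 read -0.45, 0.18, -0.42 and -0.38 and did not pass (estimate -0.27 ± 0.09, adjusted p = 0.096 in limma), with replicate 2 on the other side of 0 from the rest. GstD9 read -0.40, -0.07, -0.29 and -0.14. No call was made among 4 UDP-glycosyltransferases, which conjugate sugars to foreign compounds; Ugt49B1 was at 0.18 ± 0.10 and Ugt317A1 at 0.15 ± 0.10. Of 9 esterases and genes of juvenile hormone turnover 2 were lower, beside 3.75% of all genes. The esterase gene alpha-Est3 read -0.43, -0.16, -0.48 and -0.29, and a second probe of it passed as well, at -0.39 ± 0.10. Jheh2, a juvenile hormone epoxide hydrolase, read -0.23, 0.46, -0.93 and -0.66, so replicate 2 was on the opposite side of 0, and with the swaps unturned it passed as higher, at 0.45. Both lost their call with the row and column correction (adjusted p = 0.16 and 0.28). Unturned swaps gave 2 of the 9 higher and 0 lower.

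Immune genes were lower in treated heads wherever they passed the test. Of 12 tested immune peptide and recognition genes, 4 were lower, 0 were higher and none had an estimate above 0, with a median of -0.16. Over all annotated genes 3.75% were lower and 1.37% higher. Besides BomT3 these were Drs, which encodes the antifungal peptide drosomycin, nec, a serpin that restrains Toll activation, and BomT2, another Bomanin. Drs read -0.52, -0.26, -0.27 and -0.29 (estimate -0.34 ± 0.08, adjusted p = 0.022 in limma). BomT2 read -0.42, -0.15, -0.34 and -0.40, and nec read -0.39, -0.47 and -0.37 on the 3 arrays that measured it. Every one of these ratios was below 0; nec had no value on replicate 2. With the row and column correction the median was -0.06, BomT3 was still called (adjusted p = 0.039), and Drs, nec and BomT2 were not (adjusted p = 0.17, 0.13 and 0.13). With the swaps unturned 1 of the 12 passed, as higher.

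Of 11 tested genes in the list for fat body, 4 were lower and 0 higher, against 3.75% and 1.37% of all genes, with a median of -0.14 and 3 above 0. The list median was -0.04, 0.00, -0.24 and -0.27 on replicates 1 to 4, lower on the dye swaps. Mtp, the microsomal triglyceride transfer protein that loads lipid onto lipoproteins, read -0.62, -0.17, -0.26 and -0.50 (estimate -0.39 ± 0.09). FASN1, a fatty acid synthase, read -0.28, -0.32, -0.52 and -0.23, and these genes were below 0 on every array. Desat1, a fatty acid desaturase also used in pheromone synthesis, read -0.24, 0.10, -0.53 and -0.80, and the larval serum storage protein gene Lsp2 read -0.01, 0.28, -0.92 and -0.58. In both of the latter replicate 2 was above 0 and the lower values sat on the dye swaps; a second probe of Desat1 gave -0.22 ± 0.08 and did not pass. None of the 11 was called with the row and column correction, and Mtp and Desat1 then had an adjusted p of 0.065. With the swaps unturned 2 of the 11 were higher and 0 lower, with a median of 0.10; Lsp2 was then higher at 0.44 and Desat1 at 0.30. The yolk protein gene Yp1 had the highest estimate of the list, at 0.34, and did not pass.

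Fatty acid and carnitine genes overlap with that list. Of 13 tested, 3 were lower and none higher, beside 3.75% and 1.37% of all genes. The 3 were FASN1, Desat1 and colt, a mitochondrial carrier of the acylcarnitine type. The gene colt read 0.00, -0.72, -0.77 and -0.83, so that 3 arrays were alike and replicate 1 showed no difference. Its estimate was -0.58 ± 0.10 (adjusted p = 0.0030 in limma), and with the row and column correction its adjusted p was 0.052. None of the 13 genes was called under that correction. Unturned swaps gave 2 of the 13 higher and 0 lower, with a median of 0.05.

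Central carbon metabolism showed lower calls whose values lay mainly on the dye swaps. Of 12 tested genes of glycolysis and gluconeogenesis 3 were lower and 0 higher, beside 3.75% and 1.37% of all genes, with a median of -0.09. Pgi, the glucose-6-phosphate isomerase, read -0.38, 0.19, -0.80 and -0.998 (estimate -0.50 ± 0.09), fbp, the fructose-1,6-bisphosphatase of gluconeogenesis, read -0.46, 0.14, -0.69 and -0.87 (estimate -0.47 ± 0.09), and enolase, Eno, read -0.32, -0.28 and -0.70 on 3 arrays. Pgi and fbp were above 0 on replicate 2 and both passed with the row and column correction (adjusted p = 0.034 and 0.039). The median over the list was -0.01, 0.16, -0.30 and -0.41 on replicates 1 to 4, which means that the dye swaps were lower than the other pair of arrays. With the swaps unturned, 5 of these 12 genes were higher and the median was 0.25. The fold direction of this list therefore depends on how the swaps are read.

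The citric acid cycle list, with 5 genes tested, had 1 lower and no member above 0, beside 3.75% of all genes lower. The called gene, Mdh1, encodes the cytosolic malate dehydrogenase, not the mitochondrial enzyme of the cycle. Mdh1 read -0.06, 0.24, -0.93 and -0.87, and passed as higher, at 0.50, with the swaps unturned. ATP synthase (9 genes) and the respiratory complexes (12 genes of complex I and 9 of complexes II to IV) gave no call. Among them ND-15 read -0.35, 0.00, -0.28 and -0.39, and ND-18 read 0.53, 0.40, 0.02 and -0.11. COX4 read 0.08, 0.32, -0.58 and -0.63 (estimate -0.20 ± 0.08, adjusted p = 0.14), with the 2 dye orientations on opposite sides of 0, and passed as higher, at 0.40, with the swaps unturned. Under that reading 2 ATP synthase genes, 1 gene of complex I and 1 of complexes II to IV were higher. The subunit genes ATPsynO (-0.32, 0.05, -0.30 and -0.25) and ATPsynbeta (-0.11, 0.29, -0.70 and -0.20) had replicate 2 above 0, and Cyt-c1 was estimated at -0.10 ± 0.09. The 10 genes of sugar storage and trehalose gave no call either, with Mal-A3, a maltase, at 0.24 ± 0.08 and the trehalose transporter gene Tret1-1 at -0.22 ± 0.08. Unturned swaps gave 1 of these 10 higher.

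**Figure D3:**
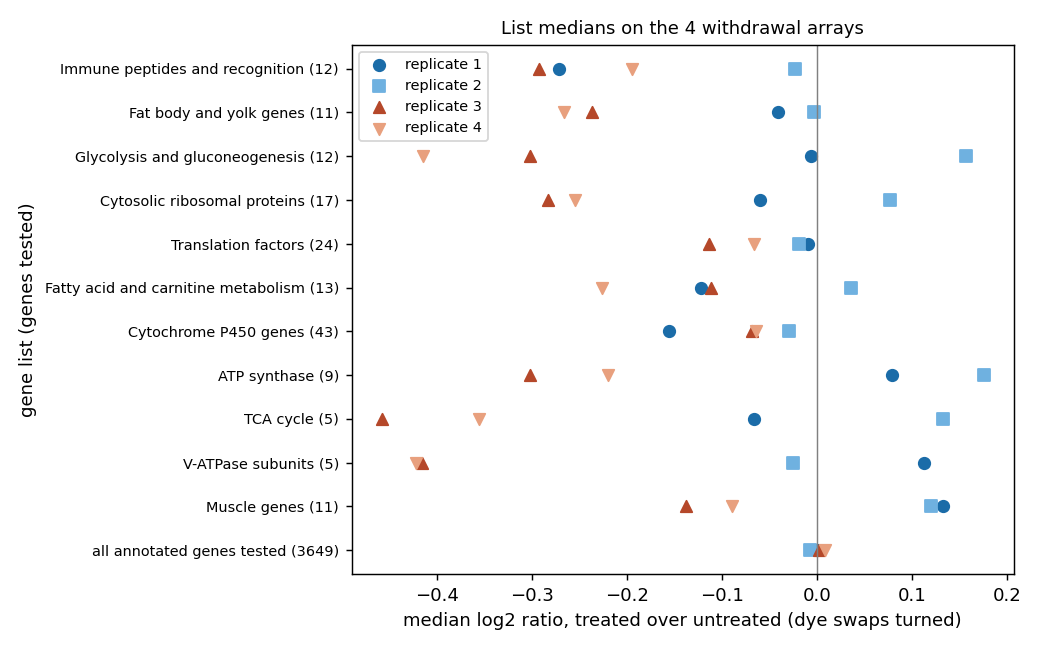
Rows are 11 gene lists and all annotated genes, with the number of genes tested in brackets; the horizontal axis is the median log2 ratio of treated over untreated on each array, dye swaps turned. For immune genes replicates 1, 3 and 4 sit together below 0 (-0.27, -0.29 and -0.20) with replicate 2 at -0.02, whereas for glycolysis, ATP synthase and V-ATPase the 2 dye orientations lie apart.

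The protein synthesis machinery gave few calls, all lower. Of 17 genes in the list for cytosolic ribosomal proteins 2 were lower, 0 higher and 3 above 0, with a median of -0.11. Over all genes 3.75% were lower and 1.37% higher. The list also holds qm, which is not a ribosomal protein gene and had the highest estimate of the 17, at 0.22. Unturned swaps gave 3 of the 17 higher and 1 lower, with a median of 0.16. RpLP0, of the ribosomal stalk, read -0.02, 0.19, -0.84 and -0.82, and RpL3, at the peptidyl transferase centre, read -0.08, 0.06, -0.63 and -0.64. These genes were near 0 on replicates 1 and 2 and low on both dye swaps. Both passed with the row and column correction and both passed as higher with the swaps unturned, at 0.46 and 0.31. Of 24 translation factors 3 were lower: eIF5B, eIF3b (-0.42, 0.01 and -0.63 on 3 arrays) and eIF4H2 (-0.42, -0.05 and -0.54). Only eIF5B among these 3 stayed past the threshold with the row and column correction. Unturned swaps gave 1 of the 24 higher. Of 33 mitochondrial ribosomal protein genes 1 was lower, mRpL33 (-0.58, -0.26 and -0.08 on 3 arrays), while 21 lay above 0. The 4 tRNA synthetases gave no call, with SerRS at -0.18 ± 0.10 and ValRS-m at 0.15 ± 0.08.

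Cuticle and chemosensory genes were described separately, since heads carry both the antennae and a cuticle. Of 36 cuticle and chitin genes 2 were lower and 0 higher, although 26 had an estimate above 0 and the median was 0.08. Over all genes 3.75% were lower and 1.37% higher, and the count lower is near that share. Cpr67B is given above, and Cht6, a chitinase, read -0.20, 0.37, -0.93 and -0.71. Cht6 did not pass with the row and column correction (adjusted p = 0.18), and passed as higher, at 0.45, with the swaps unturned. Of 10 Osiris genes, a clustered family of membrane proteins made by cuticle-forming cells, 8 lay above 0 and Osi6 was higher, reading 0.82, 0.23 and 0.07 on the 3 arrays other than replicate 1. Of 18 odorant-binding and chemosensory protein genes 1 was lower, Obp99b, at -0.38, -0.21, -0.27 and -0.26, all below 0 (estimate -0.28 ± 0.08, adjusted p = 0.044 in limma, and 0.31 with the row and column correction). The list counts the 4-array probe of Obp19c, and with the swaps unturned it had 2 genes higher and 0 lower. The 4 chemoreceptor genes gave no call, and the highest were the ionotropic receptor gene Ir47a at 0.19 ± 0.09 and the sugar receptor gene Gr61a at 0.18 ± 0.08.

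The chloride channel list and the GABA and glutamate list gave no call in either direction, in either reading of the swaps. Of the chloride channel list 6 genes were tested, and only Lcch3 among them encodes a subunit of the GABA-gated channels that PTZ blocks. Lcch3 read -0.45, -0.27 and 0.08 on 3 arrays (estimate -0.14 ± 0.10, adjusted p = 0.40 in limma). GluClalpha, the glutamate-gated chloride channel, read -0.33, 0.12, 0.34 and 0.16, and alka, a related ligand-gated channel gene, read 0.04, -0.21, 0.21 and 0.05. In all 3 of them arrays lay on both sides of 0. The voltage-gated chloride channel genes ClC-c and ClC-b were at 0.18 ± 0.08 and 0.01 ± 0.08, and the bestrophin gene Best2 was at 0.11 ± 0.08. Only ClC-c was above 0 on every array, at 0.29, 0.07, 0.14 and 0.24.

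Genes that make and clear GABA and glutamate were all within 0.15 of 0. Gad1, the glutamate decarboxylase that makes GABA, read -0.26, -0.20, -0.11 and -0.02 (estimate -0.14 ± 0.08, adjusted p = 0.27 in limma), below 0 on every array but not past the test. The GABA transporter gene Gat, used by glia, was at -0.10 ± 0.10 and the transporter gene Eaat2 at 0.02 ± 0.08. Gdh, P5CDh1 and the glutamine synthetase genes Gs1 and Gs2 were estimated at -0.06 ± 0.08, -0.05 ± 0.08, 0.08 ± 0.13 and -0.06 ± 0.09. Gs1 was the least even, reading -0.21, 0.68 and -0.09.

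Calcium channels are the target class of ethosuximide in mammals, where it acts on T-type channels. The 5 genes tested of this list gave no call, and none of them encodes a T-type channel. The voltage-gated subunit genes Ca-alpha1D and Ca-beta were at -0.03 ± 0.10 and -0.06 ± 0.10, and stj, an alpha2-delta subunit gene, was at 0.09 ± 0.08. Of the channel genes of fly vision that the list also holds, trp read -0.19, -0.02, -0.30 and -0.27, and trpl read 0.29, 0.35, -0.26 and -0.46. For trpl the orientations lay on opposite sides of 0, and it passed as higher, at 0.34, with the swaps unturned.

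No call was made among 8 sodium and potassium channel and pump genes, where the inward rectifier gene Irk1 was at -0.23 ± 0.08 and unc80, of the sodium leak channel, at 0.22 ± 0.09. Among 3 genes of acetylcholine and other ionotropic receptors, GluRIIA and the acetylcholinesterase gene Ace were at -0.06 ± 0.08 and -0.05 ± 0.08. Of 11 biogenic amine genes 1 was lower, beside 3.75% of all genes. It was speck, an arylalkylamine acetyltransferase, at -0.49, -0.37 and -0.16 on 3 arrays. Its adjusted p was 0.24 with the row and column correction. Unturned swaps gave 1 of the 11 higher and 1 lower. No call was made among 14 neuropeptide and receptor genes, with AstC (allatostatin C) at -0.57, -0.16, -0.23 and -0.12 and amn at -0.21 ± 0.09, or among 4 activity-regulated and stress transcription factor genes, with kay (the fly Fos) at -0.12 ± 0.08 and foxo at -0.06 ± 0.08. Unturned swaps gave 1 of these 4 transcription factor genes higher.

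In the remaining cellular machinery single genes passed, beside 3.75% of all genes lower and 1.37% higher. Among 45 vesicle trafficking and synaptic fusion genes the 1 call was Snx1, higher. Among 18 proteasome subunits the 1 call was Rpn12, higher, at 0.52, 0.26, 0.07 and 0.36, above 0 on every array. Ubi-p63E, a polyubiquitin gene, was the 1 call of 10 in ubiquitin conjugation, lower, at -0.39, -0.09, -0.78 and -0.37. Vha26 was the 1 call of 5 proton pump (V-ATPase) subunits, lower, at -0.32, -0.03, -0.57 and -0.42. Fer2LCH, the ferritin light chain that stores iron, was the 1 call of 15 redox and metal defence genes, lower, at -0.58, -0.05, -0.73 and -0.28. Each of these genes stayed on 1 side of 0 on every array, and of them only Snx1 passed with the row and column correction. The 14 chaperone and heat shock genes gave no call, with DnaJ-1 at 0.21 ± 0.09 on the probe used and probes on both sides of 0, and Hsc70-5 at -0.22 ± 0.08. With the swaps unturned 3 of the 14 were higher, DnaJ-1 at 0.39 and Hsc70-5 at 0.35 among them, as were 2 of the 5 V-ATPase subunits and 2 of the 15 redox and metal defence genes. Under that reading 1 of the 45 vesicle trafficking genes was higher and 1 lower.

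Of 20 splicing and RNA-binding genes Son was higher and Sf3a2, a component of the U2 particle of the spliceosome, was lower, at -0.39, -0.50, -0.19 and -0.40. The Sf3a2 probe was next in print to that of colt, also called lower. Of 7 histone and chromatin genes 1, the deacetylase gene Sirt2, was higher, at 0.49, 0.48, 0.09 and 0.08, with the larger values on replicates 1 and 2. Of 17 cell adhesion and axon guidance genes 2 were lower, Fas1 and babos (-0.31, -0.23, -0.72 and -0.26), while 11 lay above 0 and the median was 0.16. Over all annotated genes 3.75% were lower and 1.37% higher. Of 13 phototransduction and eye genes laza, a lipid phosphatase of the photoreceptor response, was higher, at -0.02, 0.75, 0.28 and 0.43. The 4 circadian clock genes gave no call. Pdp1, a clock transcription factor gene, read -0.33, -0.29, 0.29 and 1.54, and it passed as lower, at -0.61, with the swaps unturned; cry, the blue-light receptor gene, was at -0.21 ± 0.11. Neither did the 8 actin, tubulin and microtubule genes, where Act79B was at -0.15 ± 0.08 and Act88F at -0.13 ± 0.08. With the row and column correction Sirt2, laza, babos, Sf3a2 and Son lost their calls (adjusted p = 0.13, 0.19, 0.085, 0.066 and 0.052), and Fas1 kept its own. In the unturned reading 2 eye genes were higher, 1 splicing gene was higher and 1 lower, and 1 adhesion and 1 chromatin gene were lower.

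**Figure D4:**
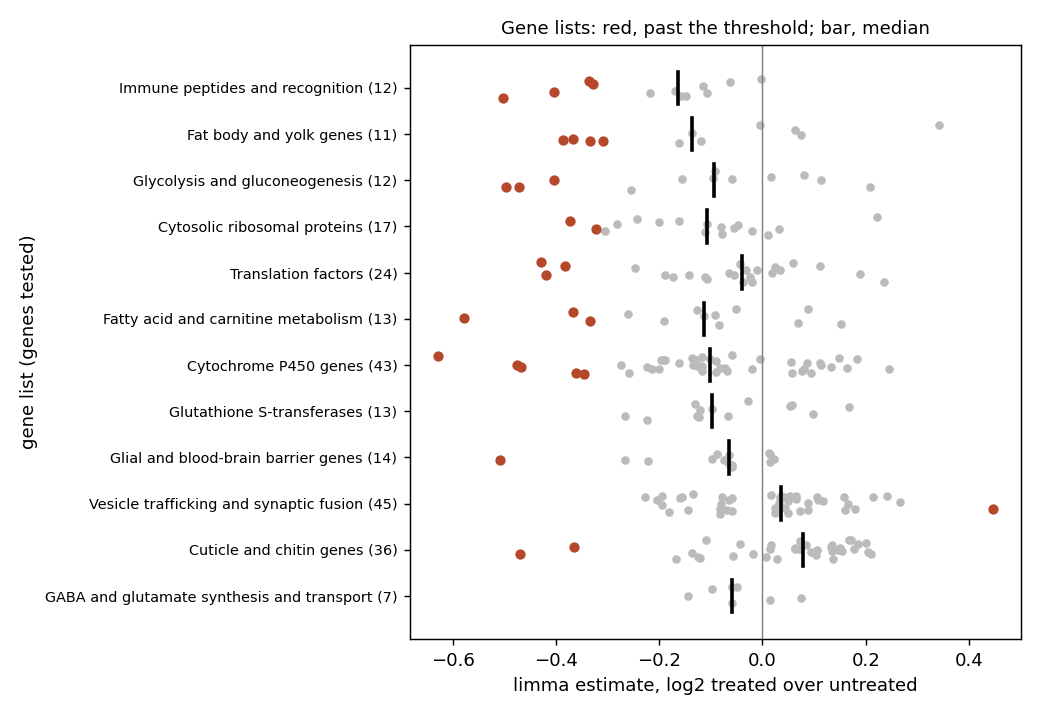
Rows are 12 gene lists with the number of genes tested in brackets; points are genes, the horizontal axis is the limma estimate (log2 treated over untreated), red points passed the threshold and black bars are list medians. The 4 red points of the immune list and of the fat body list all lie below 0, no GABA and glutamate gene is red, and most cuticle genes lie above 0.

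The markers of tissues within or beside the head were examined alongside. Of the 11 genes in the fat body list 4 were lower, as given above, beside 3.75% of all genes. Among these 4, FASN1 and Desat1 are also in the fatty acid list, and Lsp2 passed as higher with the swaps unturned. The yolk gene Yp1, at 0.34, lay on the other side of 0. Of 14 glial and blood-brain barrier genes 1 was lower, Miox, and the median was -0.06. Muscle gave no call among 11 genes, with a median of 0.00, TpnC73F at 0.22 ± 0.08 and Zasp66 at -0.19 ± 0.08 on the probe used, a second Zasp66 probe lying at 0.30 ± 0.11. Neuronal genes were few, with nSyb at 0.04 ± 0.08 and Nrx-1 at -0.07 ± 0.08. Haemocyte genes gave no call among 3, where Col4a1 was at 0.20 ± 0.08 and NimC1 at -0.22 ± 0.10. Of 7 testis and accessory gland genes none passed, with Mst77F at 0.26 ± 0.11 and ocn at -0.19 ± 0.09, and of 14 gut genes 1 was lower, the digestive protease gene Jon66Cii, at -0.47, 0.06, -0.51 and -0.34. Unturned swaps gave 1 of the 11 muscle genes higher, 1 of the 14 gut genes higher, and 1 of the 7 testis and accessory gland genes higher. The testis gene was Mst77F, at 0.43. The part of tissue makeup in the lower immune, P450 and fat body genes was not tested. Because the values are ratios, they do not show whether any of these markers was abundant in the heads.

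The second day-14 arm asks whether 3 days on ethosuximide between PTZ and normal food changed what was left on day 14. The arms were compared on their ratios to untreated heads, over 4766 probes with values on at least 3 arrays of each. None passed (0%), with 316 probes at an unadjusted p under 0.05 and a lowest adjusted p of 0.069 in limma. With the replicate number as a block, 1 probe passed, that of Obp19c, at 1.79 ± 0.18, whose withdrawal values are described above; in the ethosuximide arm it averaged -0.79 ± 0.98 (SD, n = 3). The genes named above had these means in the other arm, each against the same kind of control. Cyp313a1 averaged -0.63 ± 0.48 (SD, n = 4) after plain withdrawal and -0.73 ± 0.37 (SD, n = 4) in the ethosuximide arm. Miox averaged -0.51 ± 0.31 (SD, n = 4) and -0.45 ± 0.09 (SD, n = 3), and Cyp28d1 averaged -0.48 ± 0.30 (SD, n = 4) and -0.30 ± 0.06 (SD, n = 4). For these 3 genes both arms lay below 0 and the fitted differences between arms were 0.10 ± 0.17, -0.08 ± 0.14 and -0.18 ± 0.13 (SE).

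Other genes were further apart between arms without passing. Sodh1, a sorbitol dehydrogenase gene named after its values were seen, averaged -0.58 ± 0.48 (SD, n = 4) after plain withdrawal and 0.05 ± 0.61 (SD, n = 4) in the ethosuximide arm, a fitted difference of -0.63 ± 0.17 (adjusted p = 0.65 in limma). BomT3 averaged -0.50 ± 0.32 (SD, n = 4) after plain withdrawal and -0.04 ± 0.19 (SD, n = 3) in the ethosuximide arm, a fitted difference of -0.41 ± 0.13 (adjusted p = 0.71 in limma). Cyp9b2 averaged -0.47 ± 0.25 (SD, n = 4) and -0.01 ± 0.28 (SD, n = 3), and CG6638 averaged 0.33 ± 0.19 (SD, n = 4) and -0.05 ± 0.06 (SD, n = 4). The probe with the smallest p between the arms was that of Eaf, a transcription elongation factor gene, at 0.15 ± 0.23 (SD, n = 3) after plain withdrawal and -0.65 ± 0.87 (SD, n = 3) after ethosuximide. A difference that misses the threshold does not show that the arms were alike, and the ethosuximide arm had fewer probes with values on some arrays, 5077 to 7399 each.

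**Figure D5:**
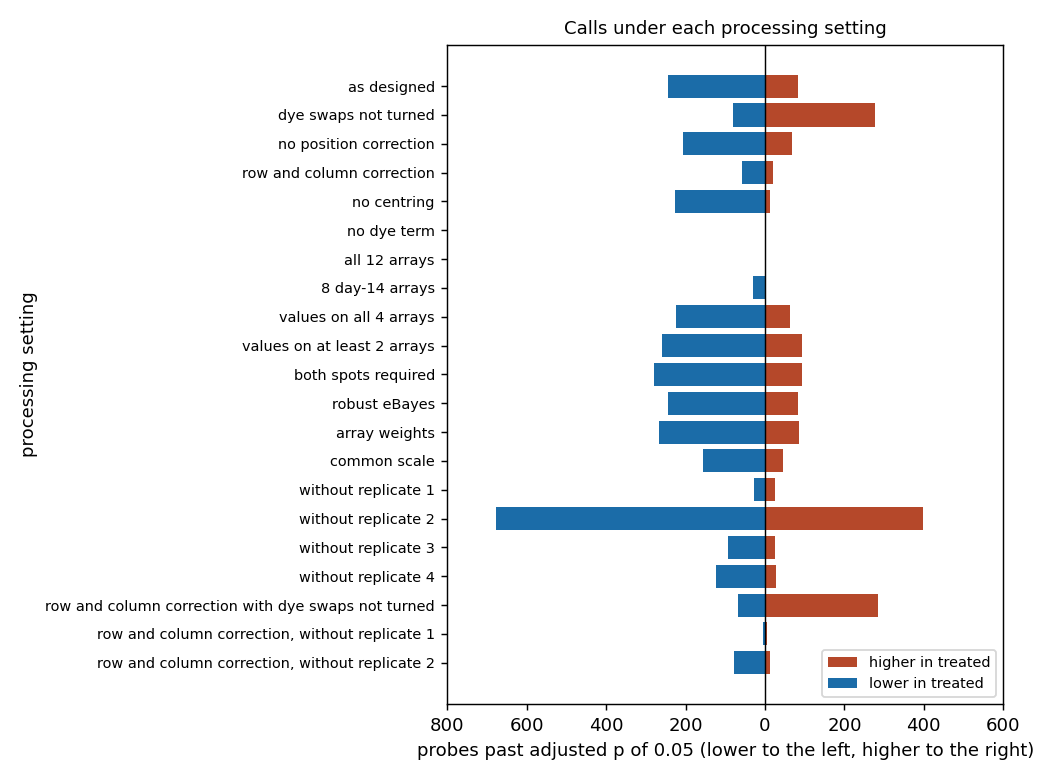
Bars count the probes past an adjusted p of 0.05 under each processing setting, higher in treated heads to the right and lower to the left. The counts are 83 and 245 as designed, 19 and 58 with the row and column correction, 276 and 81 with swaps not turned, and 397 and 678 without replicate 2.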

How the data were processed

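For each spot of a 2-colour cDNA array the authors deposited a log2 ratio of its channels. They quantified the scans in GenePix Pro 6.0, per the labels and design text, applied ratio-based normalization in Acuity 4.0, ignored spots under 100 intensity units or close to background, and filtered spots on saturation, quality flags and uniformity. The log base was read from the values: all 42 lowest values checked were whole multiples of 0.001 once unlogged, within 0.05 of a step. Depth in reads does not apply, so the number of arrays limits the precision.

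Here the 2 spots of a probe were averaged, arrays centred on their median, print-block medians subtracted and dye swaps turned. The ratios were fitted on the 4 withdrawal arrays with limma 3.58.1 (R 4.3.3; lmFit and eBayes, an intercept for treatment and a dye term), for probes with values on at least 3 arrays, and p-values were adjusted by Benjamini-Hochberg over all probes tested. The error of a probe then comes from the spread within each dye orientation, moderated towards all probes (prior degrees of freedom 17.5). The fit was tested on simulated data. The day-14 arms were compared in 1 fit over their 8 arrays with a separate dye term for each arm. Same-numbered arrays of the arms deviated together (r = 0.29, 0.48, 0.34 and 0.20 for replicates 1 to 4), although replicate 4 correlated best with replicate 3 of the other arm, and they also share the dye orientation, so the blocked value is given with that comparison.

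GEO's platform annotation names 1 gene for 7558 probes, several for 51 and none for 6215. Of the former, 7447 matched a current symbol in the RefSeq gene table of assembly Release 6, and genes are named only from probes with 1 gene. A gene in a list is represented by the probe with most values, then the lowest probe number. Named genes are the 15 of smallest p per direction with the same sign on every array, up to 4 called members of each of 47 lists (otherwise up to 2 as values), and all tested members of the chloride channel, calcium channel, and GABA and glutamate lists. The groups, lists and rules were chosen with earlier results of these data known, so no list is independent evidence of its direction. Alternatives tried were other readings of the swaps, position corrections, centring, scaling, array and spot minimums, sets of arrays and each replicate left out. No nucleotide sequences are printed.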

Additional observations from a re-analysis of the deposited data

Results flagged for a closer look

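Of the 94 named genes with values on 4 arrays, 8 had an array far from the other 3, with a gap above Dixon's critical share of the gene's whole range. Chance alone sets apart about 1 group of 4 in 20. Replicate 2 stood apart in Cyp28d1 (-0.03, the others near -0.6), GstD1 (0.183), ATPsynO (0.053) and Gdh (0.204), in each case above the others. Replicate 1 stood apart in colt (0.001), Eaat2 (-0.182) and Drs (-0.524), and replicate 4 in CG4757 (-0.653). In colt, CG4757, Cyp28d1 and Drs the call was made with that array included.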

How the results depend on the processing

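The 2 readings of the swaps change the direction of most results. Left unturned, they gave 276 probes higher and 81 lower, and of the 62 named genes that were called, 20 kept their direction and 2 stayed past the threshold. Among named genes past the threshold in either reading, the estimates that took the other sign under that reading were Obp19c -1.19, Son -0.034, Tdg -0.059, CG10710 -0.049, Mvd -0.084, CG10628 -0.049, CG6638 -0.13, Fas1 0.21, CG10560 0.042, Cyp313a1 0.26, Miox 0.21, CG4757 0.059, CG8301 0.21, CG11843 0.089, Cyp28d1 0.17, Cpr67B 0.056, CG7065 0.20, Cyp9b2 0.091, CG14641 0.11, Cyp9f2 0.078, alpha-Est3 0.046, Jheh2 0.45, Cht6 0.45, RpLP0 0.46, RpL3 0.31, eIF3b 0.21, eIF4H2 0.15, COX4 0.40, Pgi 0.40, fbp 0.31, Eno 0.086, Mdh1 0.50, colt 0.22, Desat1 0.30, FASN1 0.040, Hsc70-5 0.35, Ubi-p63E 0.17, Vha26 0.16, trpl 0.34, nec 0.016, BomT2 0.043, Fer2LCH 0.091, Pdp1 -0.61, babos 0.11, Lsp2 0.44, Jon66Cii 0.11. So did Cyp4d21, named after its value was seen, at 0.089. Genes named under Other observations are left out of this list. Many named genes that passed in neither reading also changed sign and are not listed, such as GstD1 at 0.13, trp at 0.093 and Col4a1 at -0.19. The row and column correction gave 19 and 58, of which 70 were among the 328, with all 62 named called genes keeping their direction and 24 staying past. Further alternatives chosen after seeing the data combined that correction with the unturned swaps (284 higher and 68 lower), and with leaving out replicate 1 (5 and 6) or replicate 2 (13 and 77). Without centring 13 probes were higher. On a common scale 46 and 156 passed, with the probes of a gene averaged 4 and 36 of 3665 genes, over the 8 day-14 arrays 3 and 30, and over all 12 arrays 0 and 1. Without the dye term 0 and 0 passed in limma, with 865 probes at an unadjusted p under 0.05. Leaving out each replicate in turn gave 25 to 397 higher and 28 to 678 lower. Of the leading 30, 27 to 29 had a value in these fits and 10 to 27 passed. Their direction could not change, since they were picked for the same sign on every array. Between the arms, the replicate block gave 1 call in place of 0, and leaving out an array gave 0 to 3. The calls then made were of Obp19c, Eaf and 4 probes without 1 named gene. Other settings run on the counts of called probes, which were no position correction, stricter or looser array minimums, both spots required, robust moderation and array weights, stayed within 1.5 times of the main counts. No raw intensities were used, so signal over background could not be weighed.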

Other observations

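The following called genes lie outside the leading 30 and the lists. They were picked after their values were seen, other members of their pathways were not counted, and no pathway is called changed from them. Unturned estimates are given only for Sodh1, Stt3B and Adh. For the others the stated direction holds for turned swaps only. Both sorbitol dehydrogenase genes were lower, Sodh1 at -0.58 ± 0.09 (-0.56, 0.09, -0.93 and -0.92 on replicates 1 to 4) and Sodh2 at -0.38 ± 0.09 (-0.67, -0.03, -0.37 and -0.47). So were Glyp, the glycogen phosphorylase, at -0.42 ± 0.10 on 3 arrays, and PhKgamma, the catalytic subunit of the kinase that activates it, at -0.30 ± 0.08. Glyp and Sodh1 also passed with the row and column correction, with adjusted p of 0.039 and 0.018. With the swaps unturned Sodh1 passed as higher, at 0.35. The nucleotide synthesis genes Paics, Adsl and r-l were lower, at -0.35 ± 0.09, -0.36 ± 0.10 and -0.36 ± 0.08, and below 0 on every array. The negative regulator of the Imd immune pathway, pirk, was lower at -0.28 ± 0.08, and the lipid carrier genes GLaz (3 arrays) and Acbp2 were lower at -0.50 ± 0.11 and -0.37 ± 0.08.

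Fpps, the farnesyl diphosphate synthase gene, was higher at 0.37 ± 0.10 on 3 arrays (0.47, 0.22 and 0.40). Stt3B, an oligosaccharyltransferase subunit gene, had the second largest estimate, 0.78 ± 0.10, from arrays at -0.16, 0.10 and 1.58, so it rests on replicate 3, and it passed as lower, at -0.81, with the swaps unturned. Adh, the alcohol dehydrogenase gene, read 0.34, 0.18, -1.19 and -0.84, was called lower at -0.38 ± 0.08, and passed as higher, at 0.64, with the swaps unturned.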
